A study of Homo sapiens with 10 samples.

Results

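The chaperone genes of the series were the 8 subunit genes of the CCT chaperonin, and the genes whose symbols begin with PFDN, HSPA, HSPB, HSPD1, HSPE1, HSPH1, HSP90, DNAJA, DNAJB or DNAJC, without the HSPA and HSPB pseudogenes and without HSPBP1 and HSPBAP1. This rule found 76 of the 13920 genes with counts. Of these, 74 were protein-coding and were described as members: 8 CCT, 5 PFDN, 13 HSPA, 3 HSPB, 3 HSP90, 3 DNAJA, 10 DNAJB and 26 DNAJC genes, HSPD1, HSPE1 and HSPH1. The other 2 symbols, DNAJC25-GNG10 and HSPE1-MOB4, were readthrough transcripts, and their counts share reads with the genes they span. In the NCBI gene table the rule names 84 protein-coding genes, and 10 of these were not listed in the counts and were not analysed here. The members were measured by RNA-seq in spheroids labelled T47D, a human luminal breast cancer cell line, grown for 4 days. WT cells were compared with SAMHD1-KO clones A1 and A2, which carry a CRISPR-Cas9 edit in exon 5 of SAMHD1, and each KO group is a single clone. Experiments 10 and 11 each gave a library of WT and of clone A1, and experiments 15 and 16 each gave a library of all 3 groups, with no drug treatment named in the labels. The labels tell the libraries of a group apart by experiment number alone, the study's methods call its samples biological replicates, and p-values measure the spread between these libraries.

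Chaperones bind unfolded proteins and help them reach or regain their folded state. Prefoldin hands actin and tubulin chains to the CCT ring, a double ring of 8 different subunits that folds them with ATP. HSP70 proteins (HSPA genes) bind short stretches of unfolded chain, J-domain proteins (DNAJ genes) bring clients to HSP70 and trigger its ATPase, and HSP90 acts late on kinases and steroid receptors, which include the estrogen receptor of luminal breast cells. Heat shock factor 1 switches on the heat-inducible members, and the unfolded protein response switches on those of the endoplasmic reticulum (ER).

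The promoters of the members were searched for a strict form of the letters that heat shock factors bind, and are given before the values. The search used a heat shock element of 3 units, GAANNTTCNNGAA or, on the other strand, TTCNNGAANNTTC, in 300 bases from 250 before to 50 after each start in RefSeq (GRCh38.p14). Of 68 members with a start in that table, 7 held the element (10.3%), against 0.608% of the 27305 genes in the table. They were DNAJA1, HSPA6, HSPA8, HSP90AA1, HSP90AB1, HSPD1 and DNAJB6. A match is a description of the letters and not of a bound site, and the window may miss elements that lie farther away. The search took only 3 full units with no letter changed, so elements with an imperfect unit were missed. HSPA1A, HSPA1B, DNAJB1 and HSPH1 had no match, which does not show that their promoters lack such an element. The elements before the start are printed with up to 7 bases on each side, 5′ to 3′ on the strand of the gene, with the element in capitals.
HSPA8 (chr11:123062347-123062373, minus strand): cgagcttGAAAGTTCCAGAAcgctgcg
HSPA8 (chr11:123062172-123062198, minus strand): gggccccTTCTGGAAGGTTCtaagata
HSP90AB1 (chr6:44247771-44247797, plus strand): gagcaggTTCTGGAAGATTCatgggct
HSP90AB1 (chr6:44247824-44247850, plus strand): gagattgTTCTGGAAGCTTCtggattc
HSP90AA1 (chr14:102087113-102087139, minus strand): agggttcTTCCGGAAGGTTCgggaggc
HSPD1 (chr2:197500061-197500090, minus strand): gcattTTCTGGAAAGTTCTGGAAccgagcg
HSPA6 (chr1:161524459-161524485, plus strand): ggaaaggTTCGCGAAAGTTCgcggcgg
DNAJB6 (chr7:157336866-157336892, plus strand): gagccgaGAACCTTCGCGAAggtgggg
In HSPD1 a pair of elements overlap. The pair of cytosolic HSP90 genes is shown with more context because HSP90AB1 was called lower in a KO clone and HSP90AA1 was not. RefSeq has more than 1 start for HSP90AA1, HSP90AB1 and HSPD1, and in each of them 1 start had the element within its window. In each of these genes this start is downstream of the first start of the gene, and positions are counted from it. The stretch of HSP90AA1 ends at that start, and that of HSP90AB1 runs from base −180 to base −81.
HSP90AA1 (chr14:102087045-102087144, minus strand): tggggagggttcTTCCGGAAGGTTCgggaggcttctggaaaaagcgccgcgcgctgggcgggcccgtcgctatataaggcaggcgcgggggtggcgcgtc
HSP90AB1 (chr6:44247763-44247862, plus strand): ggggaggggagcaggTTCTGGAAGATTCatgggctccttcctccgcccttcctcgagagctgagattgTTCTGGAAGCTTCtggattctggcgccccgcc

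Levels are given as CPM, the count of a gene scaled by the total of its library and by TMM factors. Total counts ranged from 40077369 to 51311482 per library. SAMHD1 was measured first as a check of the labels, and WT had 53.9, 55.7, 49.8 and 56.4 CPM (experiments 10, 11, 15 and 16). Clone A1 had 22.5 and 23 CPM in the earlier pair of experiments and 6.44 and 6.15 CPM in the later pair, while clone A2 had 23.6 and 20.2 CPM. Each KO library was thus below each WT library, but clone A1 had lower SAMHD1 RNA in experiments 15 and 16 than in experiments 10 and 11. Counts per gene do not show the edit in exon 5 itself. Several markers of the labelled cell type were low. KRT19 and SPDEF were not listed, and the estrogen receptor gene ESR1 stood at 0.954 to 1.59 CPM in experiments 10 and 11 and at 0.183 to 0.403 CPM in experiments 15 and 16. EPCAM (0.348 to 1.78 CPM), CDH1 (0.684 to 2.16 CPM) and KRT8 (3.10 to 9.07 CPM) stood below PGR, GATA3, FOXA1, XBP1 and KRT18, which lay between 14.1 and 65.3 CPM. VIM, a mesenchymal filament gene looked up after these values were seen, stood at 1175 to 1518 CPM. The low ESR1, EPCAM, CDH1 and KRT8 and the high VIM go against an epithelial luminal pattern in all 10 libraries. PGR, GATA3, FOXA1, XBP1 and KRT18 of the same list stood higher, so the list was split. The identity of the cells was not tested, and T47D is used below only as the name on the label. The summed luminal list (10 of 12 genes listed) was 167 to 177 CPM in WT, 155.5 to 173.5 CPM in clone A1 and 148 to 149 CPM in clone A2. The fibroblast list (2 of 7 listed) was 18.8 to 26.3 CPM in WT, 11.7 to 18.6 CPM in clone A1 and 12 to 13.1 CPM in clone A2. The leukocyte list (2 of 5 listed) stayed between 0.759 and 1.74 CPM and the endothelial list (1 of 3 listed) between 0.799 and 1.69 CPM, and none of the 3 basal markers was listed. The part of these markers in the chaperone values was not tested. Mitochondrial genes took 7.79% to 8.48% of the counts in experiments 10 and 11 and 9.05% to 13.9% in experiments 15 and 16, with the highest share in clone A1 of experiment 15.

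The members together took 1.51% of the counts in clone A1 of experiment 15 and 1.75% in clone A2 of the same experiment, the lowest and the highest of the libraries. To compare levels between genes, CPM was divided by the length of the canonical transcript in kb. By the mean over the 10 libraries HSP90AA1 led with 574 CPM per kb, followed by HSPA1A (507), HSPA1B (473), HSPA8 (471), HSP90AB1 (462) and the mitochondrial chaperonin gene HSPD1 (412). HSPA1A and HSPA1B share reads, and the way shared reads were counted is not given. Their levels and their places in this order are uncertain for that reason. The order was not the same in every library: HSPA1A led in both libraries of clone A2 (729 and 637 CPM per kb, against 566 and 566 for HSP90AA1), and HSPA8 was above HSPA1A in the 4 libraries of experiments 10 and 11. The 8 CCT subunits lay between 164 (CCT6A) and 336 CPM per kb (CCT7) by this mean. TCP1 was above CCT7 in both libraries of experiment 10 and in the clone A1 library of experiment 11, and CCT2 was below CCT6A in 3 libraries, clone A1 of experiment 10 (181 against 188 CPM per kb), WT of experiment 11 and clone A1 of experiment 16. Prefoldin subunits ranged from 23 (PFDN4) to 208 CPM per kb (PFDN5). The J-domain genes were led by DNAJC8 (93.0), DNAJA1 (78.0), DNAJC7 (67.5), DNAJB1 (49.0) and DNAJB11 (49.0). HSPB6, HSPB9, DNAJB13 and DNAJC15 had fewer than 10 reads in at least 1 library, with 4 reads as the lowest count of a member.

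**Figure D1:**
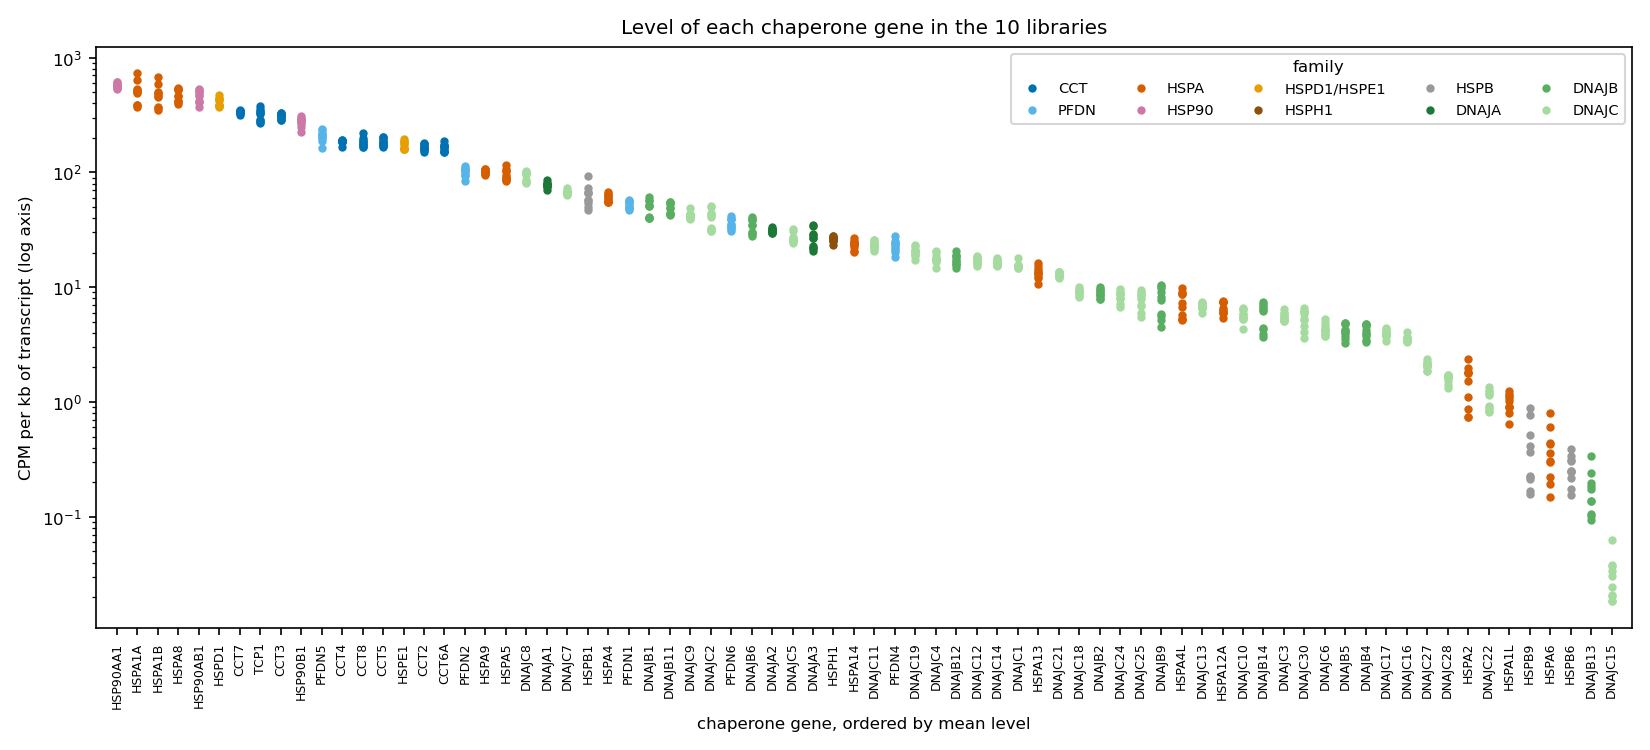
Level of each of the 74 chaperone genes, in CPM per kb of transcript on a log axis, with a point for each of the 10 libraries and colours for the families. HSP90AA1, HSPA1A, HSPA1B, HSPA8, HSP90AB1 and HSPD1 have the highest means, and HSPB9, HSPA6, HSPB6, DNAJB13 and DNAJC15 sit at its lower end.

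In experiments 15 and 16 a minority of the members passed the test in each clone. Between the mean of the clones and WT, 13 of 74 members passed the test (17.6%), 7 higher and 6 lower, against 15.6% of all genes, 6.93% higher and 8.63% lower. Clone A1 alone had 7 such members (9.46%), 3 higher and 4 lower, against 8.24% of all genes (3.95% higher and 4.29% lower). Clone A2 alone had 13 (17.6%), 8 higher and 5 lower, against 16.4% of all genes (7.33% higher and 9.07% lower). When a term for the experiment was added as a block, 20, 15 and 19 members passed, against 25.4%, 17.3% and 26.4% of all genes. In these fits with and without the block the share of members called was near the background. Without WT of experiment 15 the 3 comparisons gave 2, 1 and 3 members, with 658, 343 and 1067 of all genes. Without WT of experiment 16 they gave 3, 2 and 5 members, with 911, 453 and 1190 of all genes, and clone A1 gave 0 members and 390 genes without its library of experiment 15. In the fit of all libraries the median log2 fold change of the members was 0.01 in the first of these comparisons, −0.01 in the second and 0.04 in the third, beside 0.00, 0.00 and 0.01 over all genes. Both clones were compared with the same WT libraries. DNAJC2, DNAJB1 and TCP1 fell and HSPA4L rose in each of them. A further 3 members passed in clone A1 and 9 in clone A2, and 51 of the 74 passed in no comparison of the study. These overlaps were not counted over all genes.

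**Figure D2:**
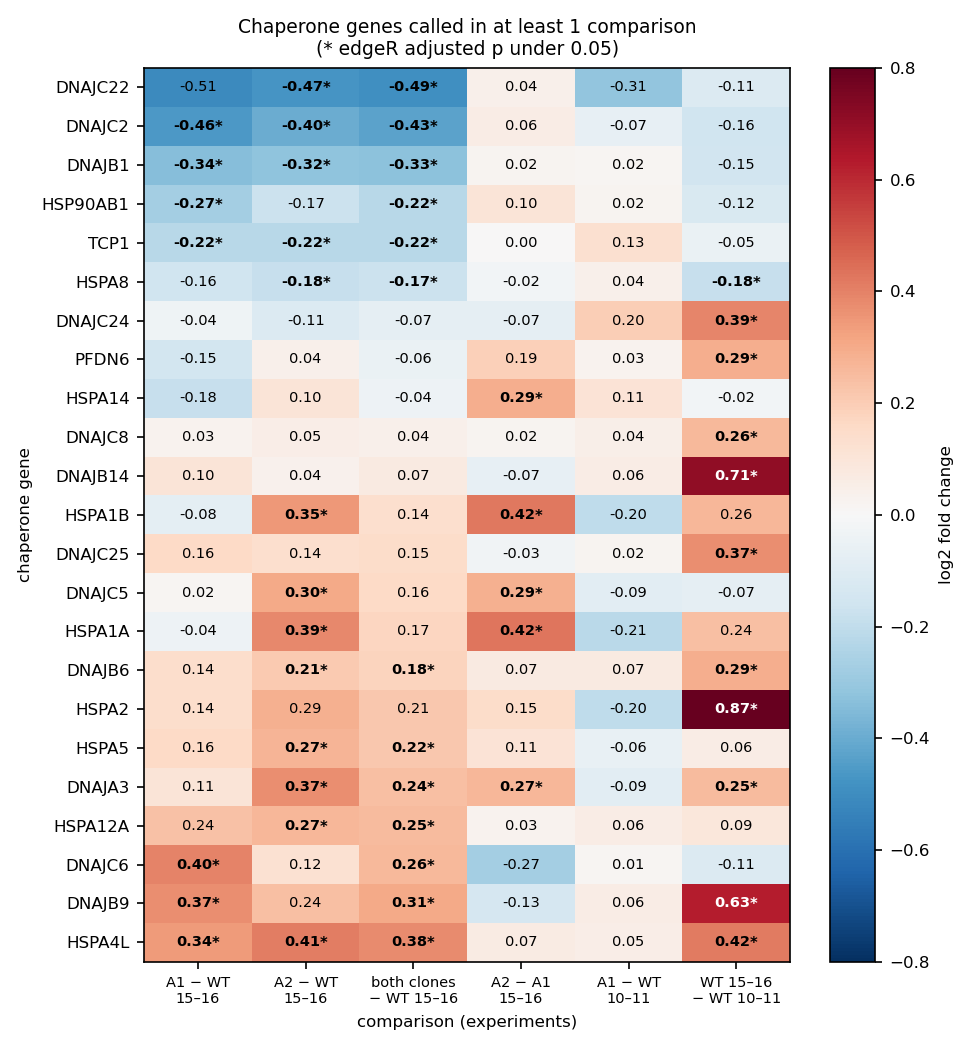
Log2 fold changes of the 23 chaperone genes called in at least 1 comparison, with a row for each gene and a column for each comparison, and an asterisk where the edgeR adjusted p was under 0.05. DNAJC2, DNAJB1, TCP1 and HSPA4L carry asterisks in both clones, and no gene does in clone A1 of experiments 10 and 11.

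Of the 8 CCT subunits, TCP1 was the 1 that fell in both clones (12.5%, against 8.24% of all genes in clone A1 and 16.4% in clone A2). TCP1 (chromosome 6, 159778498 to 159789602, GRCh38.p14) encodes subunit alpha of the ring. Its level was 758 and 775 CPM in WT of experiments 15 and 16, 643 and 669 CPM in clone A1, and 677 and 637 CPM in clone A2. All 4 KO libraries lay below both WT libraries of these experiments. The log2 fold change was −0.22 ± 0.062 (SE) in each clone, with edgeR adjusted p = 0.0348 for clone A1 and 0.0226 for clone A2. In clone A1 the call was lost in 7 of 10 fits that left out a library (adjusted p up to 0.21), and in clone A2 in 3 of 10 (up to 0.221). The other 7 subunits did not pass in either clone. In clone A1 both libraries lay below both WT libraries for each of the 8 subunits, an order that 26.4% of all genes also had. The median over the 8 log2 fold changes was −0.11 in clone A1 and −0.06 in clone A2, and CCT7 stood at 0.05 in clone A2. Within experiment 15 the summed level of the 8 genes was 4144 CPM in WT, 3830 CPM in clone A1 and 4027 CPM in clone A2, and within experiment 16 it was 4119, 3789 and 3898 CPM. In experiments 10 and 11 the order was the opposite, with 4391 and 4108 CPM in WT against 4514 and 4339 CPM in clone A1. With the replicate block CCT8 was also called lower in clone A1, with 355 and 350 CPM in WT against 310.0 and 309 CPM in the clone (adjusted p = 0.0156), where 17.3% of all genes were called.

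The make-up of the CCT RNA differed in the same libraries. Per kb, TCP1 made up 17.3% to 18.9% of the summed CCT RNA in all WT libraries and in clone A1 of experiments 10 and 11, and 15.4% to 16.7% in the 4 KO libraries of experiments 15 and 16. The ranges do not overlap. CCT7 took 17.1% to 18.1% in the former libraries and 18.7% to 19.5% in the latter. CCT4 took 9% to 10.3% and 10.4% to 11%, and the shares of the other 5 subunits overlapped between these libraries. Shares within a sum are not independent of each other, and no test was run on them.

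**Figure D3:**
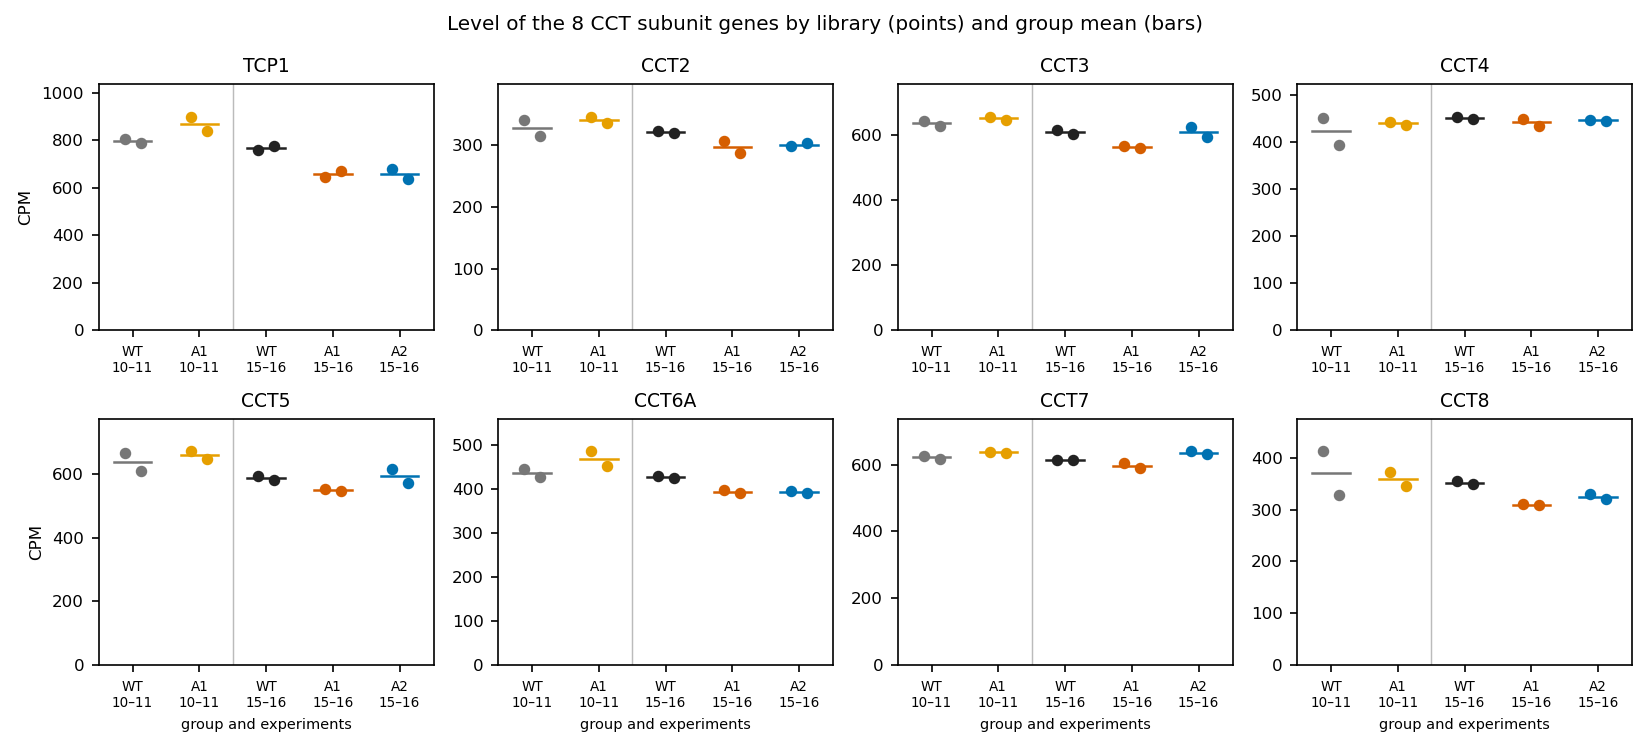
CPM of the 8 CCT subunit genes in each library, as points on a linear axis from 0 with a bar for the mean of each group in its pair of experiments. TCP1 is highest in clone A1 of experiments 10 and 11 (839.5 and 899 CPM) and lowest in the KO libraries of experiments 15 and 16 (637 to 677 CPM), and CCT4 is at 394 CPM in WT of experiment 11 and at 435 to 455 CPM in the other libraries.

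No prefoldin gene passed the test in either clone. PFDN5, the most abundant per kb, stood at 128 and 130 CPM in WT, 141 and 112 CPM in clone A1, and 118 and 97.9 CPM in clone A2 (experiments 15 and 16). In both clones the library of experiment 16 was the lower, and clone A1 had a library on either side of WT. With the replicate block PFDN5 was called lower (adjusted p = 0.0258) and PFDN1 higher (0.0485) in clone A2. Among 11 partners of CCT and prefoldin outside the rule, none passed in clone A1 (against 8.24% of all genes) and 2 fell in clone A2 (18.2%, against 16.4%). With the block 2 fell in clone A1 and 4 in clone A2, against 17.3% and 26.4% of all genes. In clone A2 PDCL3, a phosducin-like cofactor of CCT, fell by 0.29 ± 0.078 (SE, log2; adjusted p = 0.019) and the prefoldin-like URI1 fell by 0.23 ± 0.076 (0.0484). The value of URI1 in clone A1 was also −0.23 (0.0678, and 0.00522 with the block), and the median of 155 other genes within 10 Mb was −0.17 in clone A1 and −0.13 in clone A2. Of 13 actin and tubulin genes, which CCT folds, TUBB3 alone passed in clone A2 (−0.61 ± 0.19, adjusted p = 0.0439) and none in clone A1, or 7.69% and 0% against 16.4% and 8.24% of all genes. With the block 4 were higher and 3 lower in clone A2, and 3 were higher in clone A1, against 26.4% and 17.3%. For the mean of the clones TUBB2B (0.19 ± 0.060) and TUBB4B (0.23 ± 0.075) rose, the latter beside a median of 0.29 over 173 neighbouring genes.

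Of the HSP90 genes HSP90AB1 fell in clone A1, and HSP90AA1 and HSP90B1 passed in neither clone. HSP90AB1, the constitutive form, stood at 1186 and 1218 CPM in WT of experiments 15 and 16, 940.3 and 1047 CPM in clone A1, and 1074 and 1057 CPM in clone A2. Each KO library was below each WT library. It fell by 0.27 ± 0.066 (SE, log2) in clone A1 (adjusted p = 0.0169, and 0.144 without clone A1 of experiment 15). In clone A2 the value was −0.17 ± 0.066 (adjusted p = 0.0854, and 0.00882 with the replicate block). The median over 134 neighbouring genes was −0.01 in clone A1. HSP90AA1, the more inducible form, had log2 fold changes of −0.06 ± 0.060 and −0.00 ± 0.060, with 1737 to 1836 CPM over all 6 libraries. The ratio of HSP90AA1 to HSP90AB1 per kb was 1.11 to 1.23 in WT and in clone A1 of experiments 10 and 11, and 1.31 to 1.48 in the KO libraries of experiments 15 and 16, which do not overlap. The difference between the paralogs was not tested. The ER paralog HSP90B1, which carries no element in the window searched, lay between 786 and 861 CPM in these 6 libraries and passed in no comparison without the block. With it HSP90B1 was called higher in WT of experiments 15 and 16 than in WT of experiments 10 and 11 (0.23, log2, adjusted p = 0.00119).

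In the HSPA family 6 of 13 genes were called in clone A2, 5 higher and 1 lower, and HSPA4L alone in clone A1 (46.2% and 7.69%, against 16.4% and 8.24% of all genes). HSPA1A and HSPA1B, which share reads, are 2 of the 6. With the block 5 were called in each clone, 4 higher and 1 lower, against 17.3% and 26.4% of all genes, so the counts of the clones did not differ there. In clone A1 these were HSPA4L, HSPA5, HSPA12A (adjusted p = 0.0183) and HSPA13 (0.0429) with higher and HSPA8 with lower levels. HSPA8, the constitutive HSP70 of the cytosol, stood at 1047 and 1056 CPM in WT, 935.5 and 943 CPM in clone A1, and 947 and 902 CPM in clone A2 (experiments 15 and 16). It fell by 0.18 ± 0.059 (SE, log2) in clone A2 (adjusted p = 0.0401), and the value for clone A1 was −0.16 ± 0.059 (0.102, and 0.0152 with the block). HSPA1A, the main heat-inducible HSP70 gene, stood at 1270 and 1237 CPM in WT, 1184 and 1257 CPM in clone A1, and 1750 and 1528 CPM in clone A2. Both libraries of clone A2 were above the other 4. Its log2 fold change in clone A2 was 0.39 ± 0.097 against WT (adjusted p = 0.0129) and 0.42 ± 0.097 against clone A1 (0.0177), and neither passed with the replicate block (0.126 and 0.175). Without clone A2 of experiment 15 the adjusted p was 0.134 and 0.237. HSPA1B (1701 and 1474 CPM in clone A2) gave 0.35 ± 0.094 and 0.42 ± 0.094. HSPA1A and HSPA1B are not separate measurements, because 69.6% of the 150-base windows of the HSPA1A transcript occur unchanged in that of HSPA1B and 150-base reads from those windows cannot be told apart. The ratio of HSPA8 to HSPA1A per kb was 1.07 to 1.44 in experiments 10 and 11, 0.795 to 0.905 in WT and clone A1 of experiments 15 and 16, and 0.574 and 0.626 in clone A2.

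HSPA4L, an HSP110-type exchange factor for HSP70, rose in both clones. The gene lies on chromosome 4 from 127781796 to 127840733. It stood at 71.6 and 77.3 CPM in WT of experiments 15 and 16, 92.4 and 96.3 CPM in clone A1, and 92.9 and 105.0 CPM in clone A2. The log2 fold changes were 0.34 ± 0.077 (SE; adjusted p = 0.0118) and 0.41 ± 0.077 (0.00162). The call in clone A2 held without any single library, and that in clone A1 was lost without WT of experiment 15 (0.148) or either library of clone A1 (0.0555 and 0.0909). Its WT level also differed between the pairs of experiments, from 56.7 and 54.8 CPM to the values above (0.42 ± 0.078, adjusted p = 0.00213), so the difference between clone and WT was of the size of the difference between WT libraries. The 38 other genes within 10 Mb had median log2 fold changes of 0.17 in clone A1, 0.20 in clone A2 and 0.37 between the WT pairs, and their part in the result was not tested. HSPA12A, a distant HSP70 relative, rose in clone A2 (0.27 ± 0.086, adjusted p = 0.0434) beside a median of 0.24 (log2) over 80 neighbouring genes. HSPA14, a ribosome-bound HSP70, differed between the clones, with 36.6 and 35.5 CPM in clone A1 and 43.7 and 44.3 CPM in clone A2 (0.29 ± 0.075, adjusted p = 0.0387), and WT lay between them at 42.0 and 39.9 CPM. HSPH1, the other HSP110 of the heat shock response, had −0.09 ± 0.067 and 0.05 ± 0.066. HSPA6, which is expressed under strong heat shock in human cells, stayed between 0.348 and 1.89 CPM in the 10 libraries.

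Of the ER members HSPA5 rose in clone A2 and DNAJB9 in clone A1. HSPA5, the ER HSP70 known as BiP, stood at 356 and 371 CPM in WT of experiments 15 and 16, 407 and 407 CPM in clone A1, and 423 and 453 CPM in clone A2. It rose in clone A2 by 0.27 ± 0.062 (SE, log2; adjusted p = 0.00648) and stood at 0.16 ± 0.062 in clone A1 (0.12, and 0.0215 with the block). The 157 neighbouring genes had a median of 0.18 in clone A2. DNAJB9, an ER J-domain gene of the unfolded protein response, had 18.8 and 20 CPM in WT, 24.9 and 25.3 CPM in clone A1, and 21.9 and 23.8 CPM in clone A2. It rose in clone A1 by 0.37 ± 0.11 (adjusted p = 0.0399), beside a median of −0.14 over 136 neighbouring genes. Its value in clone A2 was 0.24 ± 0.11 (0.146). Of the 13 ER members 1 was called in each clone, with medians of 0.14 and 0.08 (log2), and 3 in each with the block, all higher. A single call is 7.69% of the list, against 8.24% of all genes in clone A1 and 16.4% in clone A2, and with the block the background was 17.3% and 26.4%. HSP90B1 and DNAJB11, which serve the same compartment, had 0.03 and 0.13 in clone A1 and −0.06 and 0.17 in clone A2, and neither passed without the block. The same list gave 3 calls, all higher, between the WT pairs (23.1%, against 16.4% of all genes). With the block 7 were called there, 6 higher and 1 lower, against 29.0% of all genes.

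Of 9 mitochondrial members 1 passed in clone A2 (11.1%, against 16.4% of all genes) and none in clone A1 (against 8.24%). HSPD1, the chaperonin HSP60, stood at 953 and 962 CPM in WT of experiments 15 and 16, 843 and 861.5 CPM in clone A1, and 863 and 840.5 CPM in clone A2. Its log2 fold change was −0.17 ± 0.071 (SE) in each clone, which missed the threshold (adjusted p = 0.167 and 0.118) and passed with the block (0.0118 and 0.00734). Its lid HSPE1, whose gene lies beside it in the opposite direction, had −0.05 ± 0.074 and 0.05 ± 0.074, and its HSP70 partner HSPA9 had −0.00 ± 0.065 and 0.07 ± 0.065. DNAJA3, the mitochondrial J-domain protein Tid1, was the member that passed. It stood at 72.8 and 71.9 CPM in WT, 76.7 and 79.0 CPM in clone A1, and 94.8 and 92.4 CPM in clone A2. Its log2 fold change in clone A2 was 0.37 ± 0.066 against WT (adjusted p = 0.00111) and 0.27 ± 0.066 against clone A1 (0.0289), with a median of 0.17 over 172 neighbouring genes in the former. The call against WT held without any single library.

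The small heat shock protein HSPB1 was lower in each KO library than in the WT library of the same experiment. In WT it stood at 51.6, 71.9, 56.7 and 52.2 CPM in experiments 10, 11, 15 and 16, and in clone A1 at 42.3, 51.4, 45.0 and 38.6 CPM, with 44.3 and 36.6 CPM in clone A2. The log2 fold changes were −0.38 ± 0.16 (SE) in clone A1, −0.43 ± 0.16 in clone A2 and −0.40 ± 0.15 in clone A1 of experiments 10 and 11, with adjusted p = 0.173, 0.0886 and 0.415. With the replicate block, which takes out the difference between experiments, the adjusted p was 0.00026, 2.77e-05 and 0.00188. HSPB6 and HSPB9, with fewer than 10 reads in at least 1 library, passed in no comparison without the block. With it HSPB9 was called higher in clone A2 (adjusted p = 0.031), at 0.0868 to 0.488 CPM over the 10 libraries.

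Of the 39 J-domain genes DNAJB1 and DNAJC2 fell in both clones. DNAJB1 (chromosome 19, 14514769 to 14560391), the heat-inducible partner of cytosolic HSP70, stood at 113.6 and 113.9 CPM in WT of experiments 15 and 16, 89.9 and 89.9 CPM in clone A1, and 92.6 and 89.7 CPM in clone A2. The groups did not overlap, with log2 fold changes of −0.34 ± 0.074 (SE; adjusted p = 0.00933) and −0.32 ± 0.074 (0.00694). The 322 other genes within 10 Mb had medians of −0.18 and −0.15. DNAJC2 (chromosome 7, 103312289 to 103344767), the ribosome-associated J-domain protein also called MPP11 or zuotin, stood at 96.9 and 98.2 CPM in WT, 70.8 and 71.2 CPM in clone A1, and 73.3 and 74.8 CPM in clone A2. It fell by 0.46 ± 0.091 (adjusted p = 0.00504) and by 0.40 ± 0.090 (0.00638), the largest fall of a called member in clone A1, beside medians of −0.17 and −0.16 over 148 neighbouring genes. The part of the neighbouring genes in these results was not tested. Of the 4 calls, that of DNAJC2 in clone A2 held without any single library. In clone A1 DNAJC2 was lost without its library of experiment 15 (0.0547), and DNAJB1 was lost without any of the 4 libraries compared (0.0632 to 0.0797). In clone A2 DNAJB1 was lost without WT of experiment 15 or 16 or clone A2 of experiment 16 (0.0512 to 0.0762).

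The other J-domain genes called in the comparison of a clone with WT passed in only 1 of the clones, and of these DNAJC5 and DNAJA3 also passed the test between the clones. DNAJC5, the cysteine string protein of secretory vesicles, stood at 133 and 136 CPM in WT, 135 and 137 CPM in clone A1, and 169 and 163 CPM in clone A2 (experiments 15 and 16). It rose in clone A2 by 0.30 ± 0.065 (SE, log2; adjusted p = 0.00454) and differed from clone A1 by 0.29 ± 0.065 (0.0157). DNAJC6, the uncoating factor auxilin, rose in clone A1 by 0.40 ± 0.097 (adjusted p = 0.0182) from 22.6 and 23.5 to 29.3 and 31.5 CPM. The median over 52 neighbouring genes was 0.04 in clone A1. With the block DNAJC6 was also called lower in clone A2 than in clone A1 (−0.27, log2, edgeR adjusted p = 0.0283, and 0.147 without the block). DNAJB6, a suppressor of protein aggregation with an element in its promoter, rose in clone A2 by 0.21 ± 0.064 (adjusted p = 0.0334), while 56 neighbouring genes had a median of 0.24. DNAJC22 was called lower in clone A2 (−0.47 ± 0.16, adjusted p = 0.0482, and 0.061 with DESeq2) from 5.14 and 5.54 to 4.01 and 3.71 CPM. Its value in clone A1 was of like size (−0.51 ± 0.16, adjusted p = 0.055, and 0.0258 with the block), with 3.86 and 3.65 CPM. The abundant DNAJA1, DNAJC7 and DNAJC8 had log2 fold changes between −0.01 and 0.10 in both clones.

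**Figure D4:**
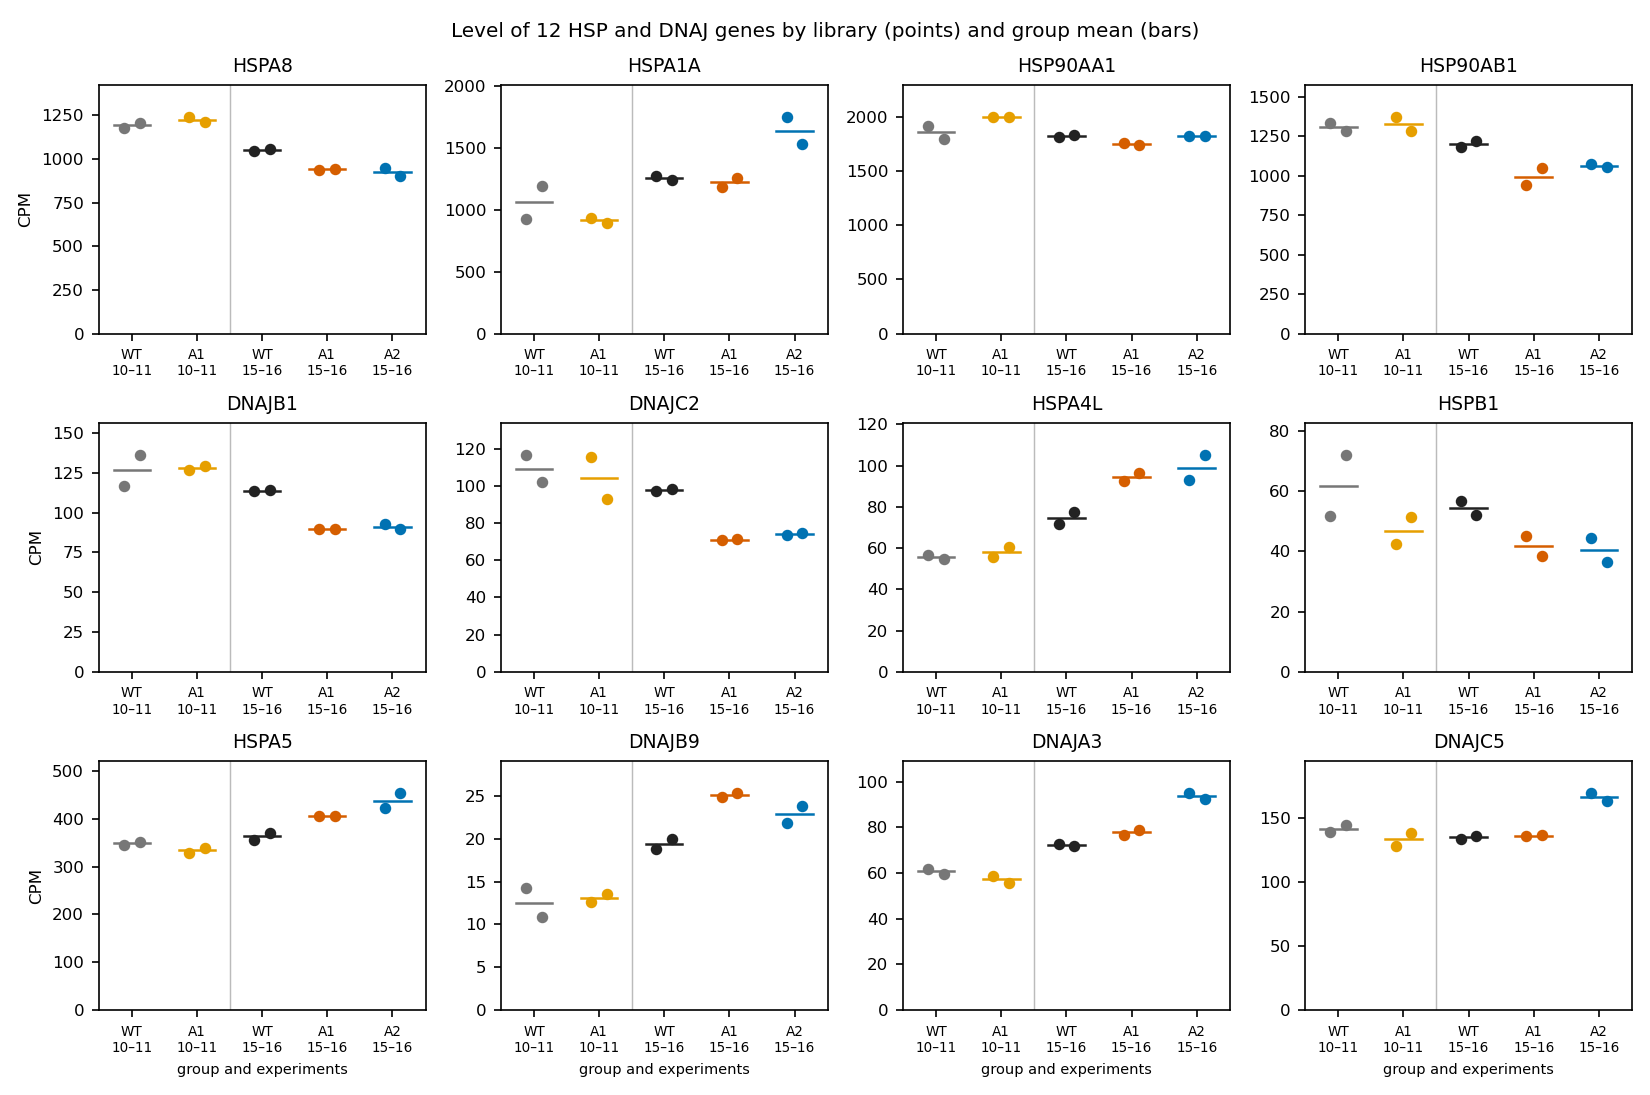
CPM of 12 HSP and DNAJ genes in each library, as points on linear axes from 0 with bars for the mean of each group in its pair of experiments. DNAJB1 and DNAJC2 step down and HSPA4L steps up in both clones of experiments 15 and 16, while HSPA1A, DNAJA3 and DNAJC5 are highest in clone A2.

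Of the 7 members with a match to the element searched, HSPA8 was called lower and DNAJB6 higher in clone A2, where 16.4% of all genes were called. In clone A1 HSP90AB1 was called lower, where 8.24% of all genes were called. With the block HSPA8, HSP90AB1 and HSPD1 were called lower in both clones and DNAJB6 higher in clone A2, against 17.3% and 26.4% of all genes. HSP90AA1, HSPA6 and DNAJA1 passed in neither clone with or without the block. A list of 15 members drawn up as heat-inducible also held HSPA8 and HSP90AB1, named above as constitutive. Its other genes were HSPA1A, HSPA1B, HSPA1L, HSPA4L, HSPA6, HSPH1, HSP90AA1, HSPB1, HSPD1, HSPE1, DNAJA1, DNAJB1 and DNAJB4. In this list 1 was called higher and 2 lower in clone A1, and 3 higher and 2 lower in clone A2. These are 20% and 33.3% of the list, against 8.24% and 16.4% of all genes. HSP90AB1 in clone A1 and HSPA8 in clone A2 are among the lower calls. HSPA1A and HSPA1B are 2 of the 3 that were higher. With the block 1 was higher and 5 lower in each clone, HSPA8 and HSP90AB1 among the lower, beside 17.3% and 26.4% of all genes called. The summed level of the list was 8206 and 8222 CPM in WT of experiments 15 and 16, 7463 and 7703 CPM in clone A1, and 8857 and 8304 CPM in clone A2. HSPA1A and HSPA1B, which share reads, are both in these sums, and the median log2 fold change over the list was −0.08 in clone A1 and −0.00 in clone A2.

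Of 33 heat shock factors and co-chaperones outside the rule, 3 fell and 0 rose in clone A1, and 5 fell and 2 rose in clone A2. These are 9.09% and 21.2% of the list, against 8.24% and 16.4% of all genes. With the block 8 fell and 1 rose in clone A1, and 7 fell and 3 rose in clone A2, against 17.3% and 26.4% of all genes. HSF1 itself had 0.04 ± 0.076 and 0.07 ± 0.076 (SE, log2). HSPBP1, an inhibitor of HSP70, fell by 0.42 ± 0.10 in clone A1 (adjusted p = 0.0155) and by 0.34 ± 0.099 in clone A2 (0.0281), and the myosin chaperone UNC45A fell by 0.27 ± 0.068 (0.02) and 0.30 ± 0.068 (0.00598) in the same order. The medians of neighbouring genes were −0.16 and −0.15 for HSPBP1 (289 genes) and −0.18 and −0.20 for UNC45A (88 genes). ST13, the HSP70-interacting protein Hip, stood at 350.0 and 363 CPM in WT, 331 and 341 CPM in clone A1, and 224 and 214 CPM in clone A2. It fell in clone A2 by 0.70 ± 0.063 (adjusted p = 2.53e-06) and differed from clone A1 by −0.62 ± 0.063 (2.09e-05), beside a median of −0.54 over 183 neighbouring genes in the comparison with WT, whose part in the result was not tested. GRPEL1 and TRAP1, both of mitochondria, rose in clone A2 by 0.24 ± 0.079 and 0.27 ± 0.071 (adjusted p = 0.0476 and 0.0151), beside medians of 0.16 and 0.17 over 94 and 169 neighbouring genes. In clone A1 they had 0.17 ± 0.079 (0.223) and 0.21 ± 0.071 (0.073, and 0.00582 with the block). Of 4 further J-domain genes none passed in either clone.

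Clone A2 differed from clone A1 in 5 members, all higher in clone A2, against 4.14% of all genes called in this comparison (1.07% higher and 3.07% lower). They were DNAJA3, DNAJC5, HSPA14, HSPA1A and HSPA1B, and the last pair shares its reads as described. With the block 4 were called, 3 higher and 1 lower (DNAJC6), and the background was 8.71%. Without clone A1 of experiment 15 or 16, or clone A2 of experiment 15, 0 members were called, with 298, 391 and 327 of all genes. The count was 2 members and 268 genes without clone A2 of experiment 16, and 3 members and 500.0 to 516 genes without either clone A1 library of experiments 10 and 11 or either WT library of experiments 15 and 16. WT libraries enter this comparison only through the shared estimate of the spread.

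In experiments 10 and 11 the same clone A1 gave no call among the members with edgeR, and none with DESeq2. An unadjusted edgeR p under 0.05 was found for 7 of the 74 members and for 1476 of all 13920 genes. Of all genes 0.194% were called in this comparison (0.0287% higher and 0.165% lower). With the block HSPB1 was the 1 member called, against 2.74% of all genes. Without WT of experiment 10, 8 members and 1361 of all 13920 genes were called, and without any other library 0 members. TCP1 stood at 806 and 786 CPM in WT and at 899 and 839.5 CPM in clone A1, so that the clone was above WT there (0.13 ± 0.062, SE, log2, adjusted p = 0.478) and below it in experiments 15 and 16. The difference of the clone A1 effect between the pairs was −0.35 ± 0.088 for TCP1 (adjusted p = 0.0437), the 1 member called in this test, against 2.50% of all genes (1.56% higher and 0.941% lower). With the block 10 members were called, 4 higher and 6 lower, against 8.96% of all genes. They were TCP1, CCT6A, HSPD1, HSP90AB1, DNAJB1 and DNAJC2 with lower effects in experiments 15 and 16, and HSPA4L, HSPA5, DNAJC4 and DNAJC6 with higher ones. Without the block and WT of experiment 10 the count was 7 members and 1123 genes, without WT of experiment 11 it was 4 members and 538 genes, without clone A1 of experiment 11 it was 1 member and 159 genes, and without any other library it was 0 members. SAMHD1 also differed between the pairs (−1.81 ± 0.14, adjusted p = 1.2e-06).

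**Figure D5:**
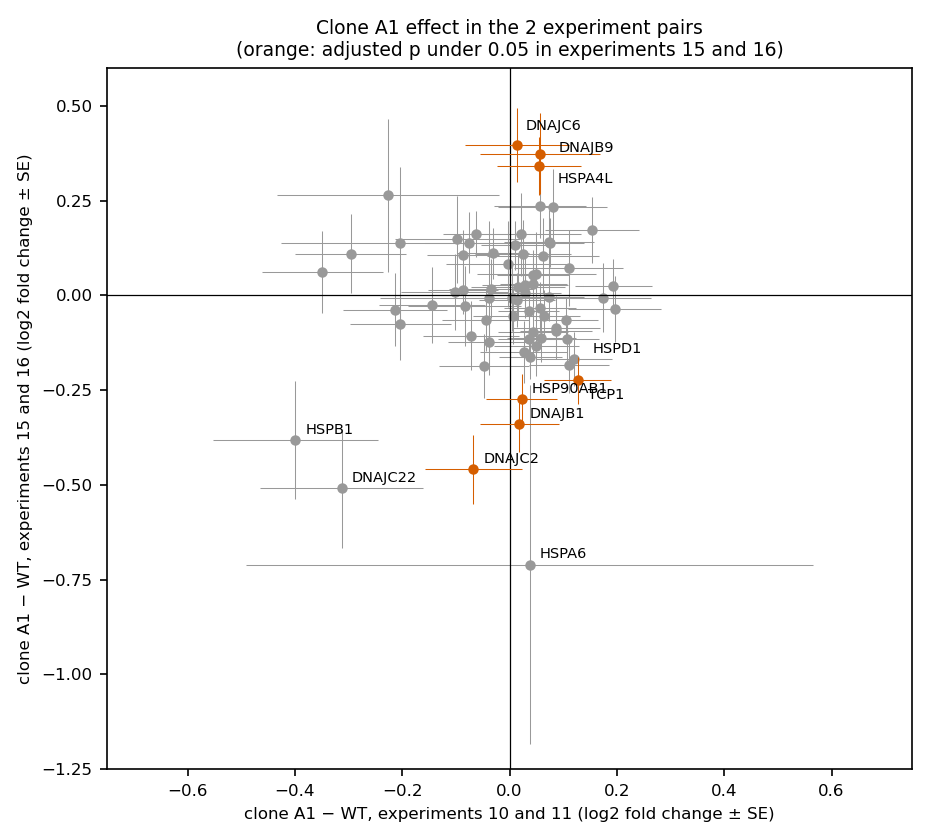
Log2 fold change of clone A1 against WT in experiments 10 and 11 (horizontal axis) and in experiments 15 and 16 (vertical axis) for the 70 members with at least 10 reads in each library, with bars of 1 SE and, in orange, those called in experiments 15 and 16. The 7 orange genes lie between −0.07 and 0.13 on the horizontal axis, and HSPB1 and DNAJC22 are low on both axes.

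WT itself differed between the pairs of experiments, and the members shared in it. Between WT of experiments 15 and 16 and WT of experiments 10 and 11, 11 members were called (14.9%), 10 higher and 1 lower, against 16.4% of all genes (8.61% higher and 7.74% lower). With the block, which is estimated from the differences within each pair, 21 were called and 29.0% of all genes. HSPA8 was the member that was lower, from 1178 and 1206 CPM to 1047 and 1056 CPM. The testis-enriched HSP70 gene HSPA2 (1.87 and 2.77 CPM against 3.86 and 4.60 CPM), the ER J-domain genes DNAJB14 (0.71 ± 0.10, SE, log2) and DNAJB9 (0.63 ± 0.11), and DNAJC24, DNAJC25, DNAJC8, DNAJB6, DNAJA3, PFDN6 and HSPA4L were higher. For DNAJB14 the median of 50 neighbouring genes was 0.40. Reads of DNAJC25 cannot be separated from those of its readthrough transcript, which varied between 0.0195 and 8.83 CPM. WT of experiments 15 and 16 enters this comparison and those with the clones. Of the 16 members called in either clone 5 were also called here, an overlap that was not counted over all genes. Without WT of experiment 10 the count was 18 members and 3658 genes, without WT of experiment 15 it was 5 members and 1002 genes, and without WT of experiment 16 it was 4 members and 820 genes. The pair of experiments and whatever else changed between them cannot be told apart.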

How the data were processed

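The authors aligned paired 150-base reads of stranded mRNA libraries to GRCh38 with HISAT2 (StringTie is also named in the submitters' processing notes), and deposited raw counts per NCBI gene without normalization. The counting program is not given in the sources used here. RNA extraction is given as the Maxwell HT simplyRNA kit in the labels and as NucleoSpin in the methods. The lowest deposited count is 1, so genes with a 0 in any library had been removed. Of 13920 genes 13885 had a symbol in the NCBI table (GRCh38.p14) and 35 did not. No library was a copy of another: over the 45 pairs, chi-square divided by its degrees of freedom was 6.74 to 150.

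Counts were tested with edgeR 4.0.16 in R 4.3.3 (TMM factors 0.976 to 1.04, robust quasi-likelihood test). The 10 libraries entered 1 fit with 5 cells, WT and clone A1 of experiments 10 and 11, and WT, clone A1 and clone A2 of experiments 15 and 16. Benjamini-Hochberg adjustment covered every gene tested (threshold 0.05), and "called" or "passed" means an adjusted p below it. SE is that of the log2 fold change. Levels are CPM, and transcript lengths come from GENCODE v44. Alternatives were DESeq2 1.42.0, RLE normalization, filterByExpr, the experiment number as a replicate block, each pair of experiments alone, and each library left out in turn. The members, lists, tests and the rule for naming genes were chosen with earlier results of these data known. The rule named the CCT, PFDN, HSPA, HSPB, HSP90, HSPD1, HSPE1 and HSPH1 genes, up to 5 DNAJ genes with the largest called change in each direction and comparison, the 5 DNAJ genes with the highest level per kb, and up to 3 genes of each further list in each direction. Single genes outside it (HSF1, VIM and DNAJ genes named for a count or a low level) were chosen after their values were seen.

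Same-numbered libraries of WT and clone A1 correlated at 0.468 to 0.526 across genes after the group mean was removed, and other libraries of the same pair of experiments at 0.399 to 0.461. Same-numbered libraries of clone A2 correlated at 0.0208 and 0.159 with WT and at 0.00803 and 0.0909 with clone A1. Clone A2 has libraries of experiments 15 and 16 only, so its group mean takes out the pair of experiments as well. Its values cannot be set beside those of WT with clone A1. After the mean of the cell was removed too, the values were 0.0844 for experiments 10 and 11, and 0.134 (clone A1 with WT), 0.151 (clone A2 with WT) and 0.103 (the clones) for experiments 15 and 16. Because the numbers name shared experiments, blocked counts are given for the members together and, for each clone against WT, for the lists they move most. A simulation gave each gene the same mean in all libraries, except for 200 of 13920 genes changed in clone A1 of the later experiments. It held no other difference between experiments or clones, which the real data have. For clone A1 against WT edgeR found 93 of 100 genes changed 2-fold and 77 of 100 changed 1.4-fold, with 9 false calls. These counts do not show how the fit behaves in the real data.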

Additional observations from a re-analysis of the deposited data

Results flagged for a closer look

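DNAJB1 and CCT4 stood apart in a single WT library. DNAJB1 was at 136 CPM in WT of experiment 11 and at 114 to 117 CPM in the other 3 WT libraries, and CCT4 was at 394 CPM in the same library and at 450.1 to 455 CPM in the others. The gap to the nearest library, as a share of the whole range, was 0.852 and 0.924, above Dixon's limit for 4 samples. Of 94 groups of 4 libraries looked at, 2 were beyond the limit, and chance gives about 1 in 20. The same library had the highest HSPB1 level.

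The effect of clone A1 on TCP1 differed between the pairs of experiments by −0.35 on the log2 scale (edgeR adjusted p = 0.0437), with both libraries of the clone above WT in experiments 10 and 11 and both below it in experiments 15 and 16. The call was kept without WT of experiment 10 or 11 (0.0199 and 0.0461) and lost without any of the other 8 libraries (0.0607 to 0.251).

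Clone A2 differed from clone A1 in HSPA1A (0.42, adjusted p = 0.0177), HSPA1B (0.42, 0.0135), DNAJA3 (0.27, 0.0289), HSPA14 (0.29, 0.0387) and DNAJC5 (0.29, 0.0157), all on the log2 scale and higher in both libraries of clone A2 than in both of clone A1. With the replicate block HSPA1A and HSPA1B did not pass (0.175 and 0.154).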

How the results depend on the processing

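DESeq2, RLE normalization and filterByExpr kept the counts of called members within 1.5 times, except that DESeq2 called 2 members in the difference of the clone A1 effect between the pairs (1 with edgeR). The replicate block gave 20 members for the mean of the clones, 15 for clone A1, 1 for clone A1 in experiments 10 and 11, 10 for the difference between the pairs and 21 between the WT pairs. Over all genes the block called 3534 rather than 2165 for the mean of the clones, 2411 rather than 1147 for clone A1 and 3673 rather than 2283 for clone A2. Experiments 15 and 16 alone gave 11 members and 1834 genes for clone A1. With a library left out, the counts ranged from 2 to 20 for the mean of the clones, 0 to 12 for clone A1, 3 to 20 for clone A2, 0 to 6 for clone A2 against clone A1, 0 to 8 for clone A1 in experiments 10 and 11, 0 to 7 for the difference between the pairs and 4 to 18 between the WT pairs. Without WT of experiment 15, 2, 1 and 3 members were called for the mean of the clones, clone A1 and clone A2, and 3, 2 and 5 when WT of experiment 16 was left out instead. Clone A1 had 0 members without its library of experiment 15 and 2 without that of experiment 16. The mean of the clones gave 8 without clone A1 of experiment 16 and 6 without clone A2 of that experiment, and clone A1 gave 11 and 12 without WT of experiment 10 and 11. Clone A2 had 8 without its library of experiment 15 and 6 without that of experiment 16. Without WT of experiment 10, 8 members and 1361 genes were called for clone A1 in experiments 10 and 11, and the counts for the mean of the clones and clone A2 rose to 20, as they did without WT of experiment 11. The cause was not tested. Of the 50 called results of single members, 0 changed direction under any alternative. HSPA1A and HSPA1B lost their calls in clone A2 with the block (adjusted p = 0.126 and 0.138 against WT, 0.175 and 0.154 against clone A1), and DNAJC22 in clone A2 with DESeq2 (0.061). With 2 libraries a group, a call that fails for a single member does not show that its level was the same.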
